A study of Homo sapiens with 21 samples.

Results

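The comparison of cells given 0.001 µM coumarin for 24 h with untreated cells rests on 3 libraries per group, 6 of the 21 libraries of the study, and was chosen by dose alone, with all genes in view. The label gives the cells as HepG2, an established culture line that came from a liver tumour, and no change of genotype is stated for either group. Per the labels' protocols, medium with serum was taken off both groups, the cells were rinsed, and they then spent 24 h in DMEM without serum, with coumarin at 0.001 µM or at 0 µM. Serum withdrawal was thus common to both groups, and the coumarin stock was made in DMEM, so no other solvent is named. The other 15 libraries, 3 each at 0.01, 0.1, 1, 10 and 100 µM, entered the fit to estimate the spread. The series design states biological replicates, but not whether these were separate cultures or days, so the p-values measure the spread between these libraries only, which may be technical.

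Coumarin is a plant lactone used as a fragrance, and in human liver it is hydroxylated mainly by the cytochrome CYP2A6. The anticoagulants that inhibit VKORC1, the vitamin K recycling enzyme, are derivatives of it, while coumarin itself is not an anticoagulant. Serum-starved cultured cells keep a set of short-lived transcripts that respond within minutes to hours to growth factors, oxygen, glucose and other stresses. DDIT4, an inhibitor of the growth-regulating kinase complex mTORC1, ADM, which encodes the vasodilator peptide adrenomedullin, DUSP1, a phosphatase that switches off MAP kinases, and FOS, a subunit of the transcription factor AP-1, belong to that set.

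At 0.001 µM coumarin, 32 transcripts fell and 224 rose against untreated cells. The falls were led by ADM, 2.60-fold lower, and DDIT4, 1.41-fold lower, with DUSP1 and RHOB, a small GTPase, also lower. The rises were mostly small, with a median of 1.16-fold, and among them were the collagens COL4A2, COL5A1 and COL12A1, the lipid synthesis enzymes SCD and ACACA, and DSP of the desmosome. CYP2A6 was at the limit of detection and VKORC1 did not pass the test.

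Together the 256 changed genes were 1.53% of the 16699 genes tested, the rises 1.34% and the falls 0.192% (p-values of the quasi-likelihood test in edgeR, adjusted by Benjamini-Hochberg, threshold 0.05). Of the rises, 219 of 224 were protein-coding genes, and a fold of at least 1.5 was reached by 6 rises and 3 falls. Over all genes tested the median log2 change was -0.0024, and 49.1% had a value above 0. In such bulk samples, fewer cells of one kind and less RNA per cell cannot be told apart. In 32 of 32 falls and 220 of 224 rises the 3 treated libraries did not overlap the 3 controls. The same held for 6.5% (lower) and 7.83% (higher) of all genes tested. At an unadjusted p under 0.05, the background for the list counts, 7.59% of all genes tested were higher and 4.41% lower. The count rested partly on single libraries: 59 genes changed without control replicate 3 and 47 without 0.001 µM replicate 3. Upper-quartile scaling gave 151 rises and 47 falls, a share of rises of 76.3% against 87.5%, and shifted the median of all genes by -0.021.

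**Figure D1:**
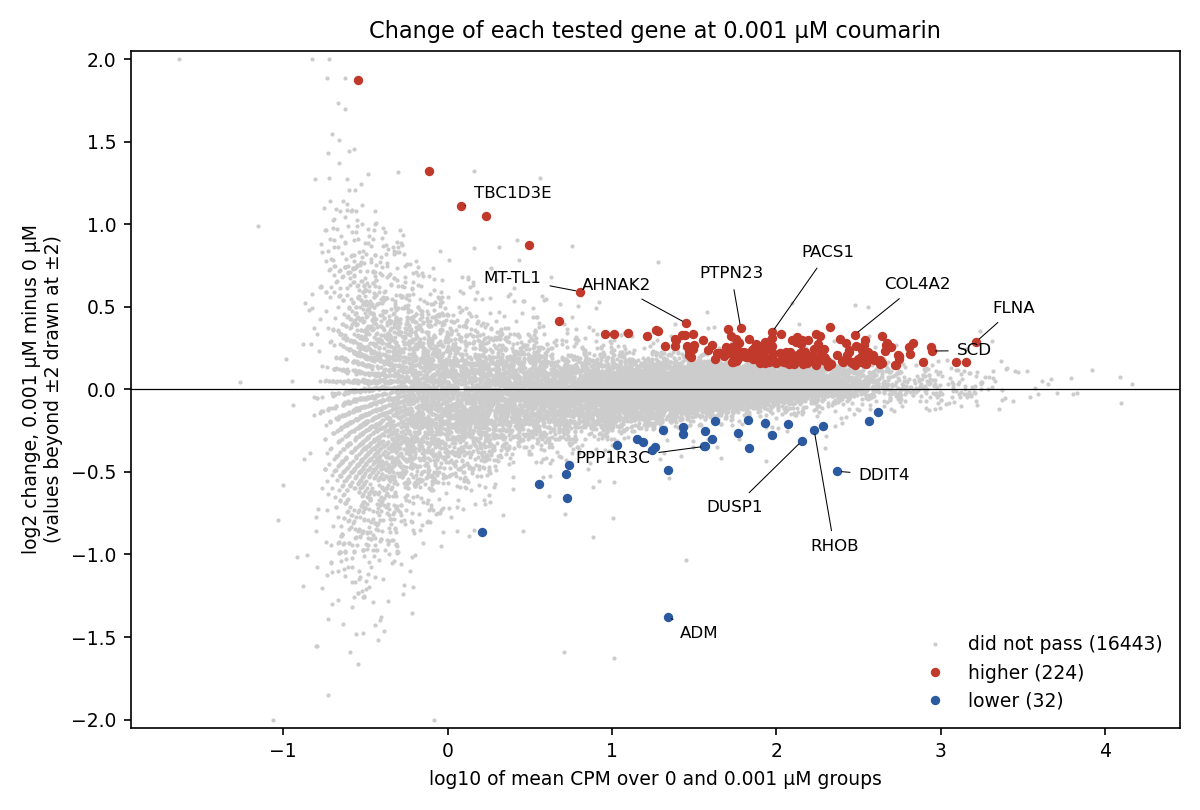
Each point is one of the 16699 genes tested, by its mean level in CPM (counts scaled to library size, log10 axis) and its log2 change from 0 to 0.001 µM coumarin; red points rose, blue points fell and grey points did not pass the test (values beyond 2 in either direction are drawn at the edge). Of the 224 rises 117 lie between 100 and 1000 CPM and 96 between 10 and 100 CPM, most of them close to 0, and ADM lies far below the other falls of similar level.

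The 6 libraries held 27647164 to 31804876 counts. The hepatocyte genes ALB, APOA1, APOB, TTR, SERPINA1, FGB and FOXA2 had 0 counts in each of them, and HNF4A had at most 1, although the label names a liver line. The limit that 0 counts allow, 3 counts, was at most 0.108 CPM in these libraries. The epithelial keratins KRT7 (738 to 772 CPM), KRT8 (2289 to 2695 CPM) and KRT18 (1148 to 1352 CPM) were abundant, as was the fibrillar collagen COL3A1 (1131 to 1362 CPM), whereas the epithelial adhesion gene EPCAM had 0 counts. The leukocyte gene PTPRC had at most 1 count. Defining markers of the labelled cell type were thus absent or at the limit of detection, and the cells are called here by their label only. Replicates differed beyond sampling noise (chi-square per degree of freedom 2.31 to 8.19 between pairs), so none was counted as a repeat of another.

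DDIT4 lies at 10:72273920-72276036 on the plus strand (GRCh38). Its level was 279, 279 and 269.6 CPM in the 3 controls and 191, 189.99 and 205 CPM in the 3 treated libraries. The groups stood well apart, with a gap several times wider than the spread inside either. The log2 change was -0.50 ± 0.051 (SE, n = 3 against 3; edgeR adjusted p = 5.03e-07). It kept its call in every alternative run, with values from -0.54 to -0.48.

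ADM, at 11:10304680-10307397 on the plus strand, had 29.4, 31.1 and 34.0 CPM in the controls. In treated cells it had 11.4, 12.2 and 12.9 CPM. Every treated library was below the lowest control, and this was the largest fold among the protein-coding falls named (log2 -1.38 ± 0.147, SE; edgeR adjusted p = 0.000241). Over the alternatives the value ran from -1.43 to -1.19 and the call was kept.

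DUSP1, at 5:172768090-172771195 on the minus strand, fell from 153 to 163 CPM in controls to 121, 128 and 134 CPM (log2 -0.31, edgeR adjusted p = 0.000183). RHOB, at 2:20447074-20449445 on the plus strand, had 191, 179.9 and 182 CPM in controls and 142, 156 and 168 CPM in treated libraries (log2 -0.25, edgeR adjusted p = 0.00433). Neither gene's groups overlapped. For both genes treated replicate 3 was the nearest to the controls. These and the previous pair were the only falls that kept their call in every alternative fit, together with 22 rises.

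The RefSeq bases from 250 to 11 before the start of DDIT4, DUSP1 and RHOB (GRCh38.p14) are shown because these genes fell together. They lie at 10:72273674-72273913 (plus strand), 5:172771206-172771445 (minus strand) and 2:20446824-20447063 (plus strand). Capitals mark TGACG, the core of the cyclic AMP response element, and ACGTG, a form of the core of the hypoxia response element, on either strand. GCGTG, another form of that core, was neither marked nor counted.
DDIT4: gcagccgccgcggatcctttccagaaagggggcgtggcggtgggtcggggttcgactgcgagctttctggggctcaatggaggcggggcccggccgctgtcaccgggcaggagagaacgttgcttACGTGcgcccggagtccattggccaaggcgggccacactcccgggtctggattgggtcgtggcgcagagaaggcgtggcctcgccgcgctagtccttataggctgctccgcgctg
DUSP1: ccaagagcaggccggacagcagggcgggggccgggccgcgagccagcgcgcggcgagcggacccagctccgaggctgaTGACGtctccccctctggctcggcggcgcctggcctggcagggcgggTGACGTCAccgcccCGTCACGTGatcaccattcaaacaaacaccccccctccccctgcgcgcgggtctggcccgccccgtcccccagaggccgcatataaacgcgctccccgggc
RHOB: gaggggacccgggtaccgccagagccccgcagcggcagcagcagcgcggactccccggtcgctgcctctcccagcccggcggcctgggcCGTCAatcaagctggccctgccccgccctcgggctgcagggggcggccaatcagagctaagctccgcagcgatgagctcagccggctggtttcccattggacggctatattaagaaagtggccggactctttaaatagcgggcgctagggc
The DDIT4 window held 1 ACGTG and no TGACG, and the RHOB window 1 TGACG and no ACGTG. The DUSP1 window held 4 matches to TGACG, a pair of which form the full palindrome TGACGTCA, and 2 overlapping matches to ACGTG that share bases with the last TGACG. Among 35116 promoters of the same source and length, 20.5% held TGACG, 17.7% ACGTG, 1.57% TGACGTCA and 32.4% TGACG or ACGTG. These matches describe the letters of the windows only. The window of ADM reaches into the gene as annotated in the count table and is not printed.

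**Figure D2:**
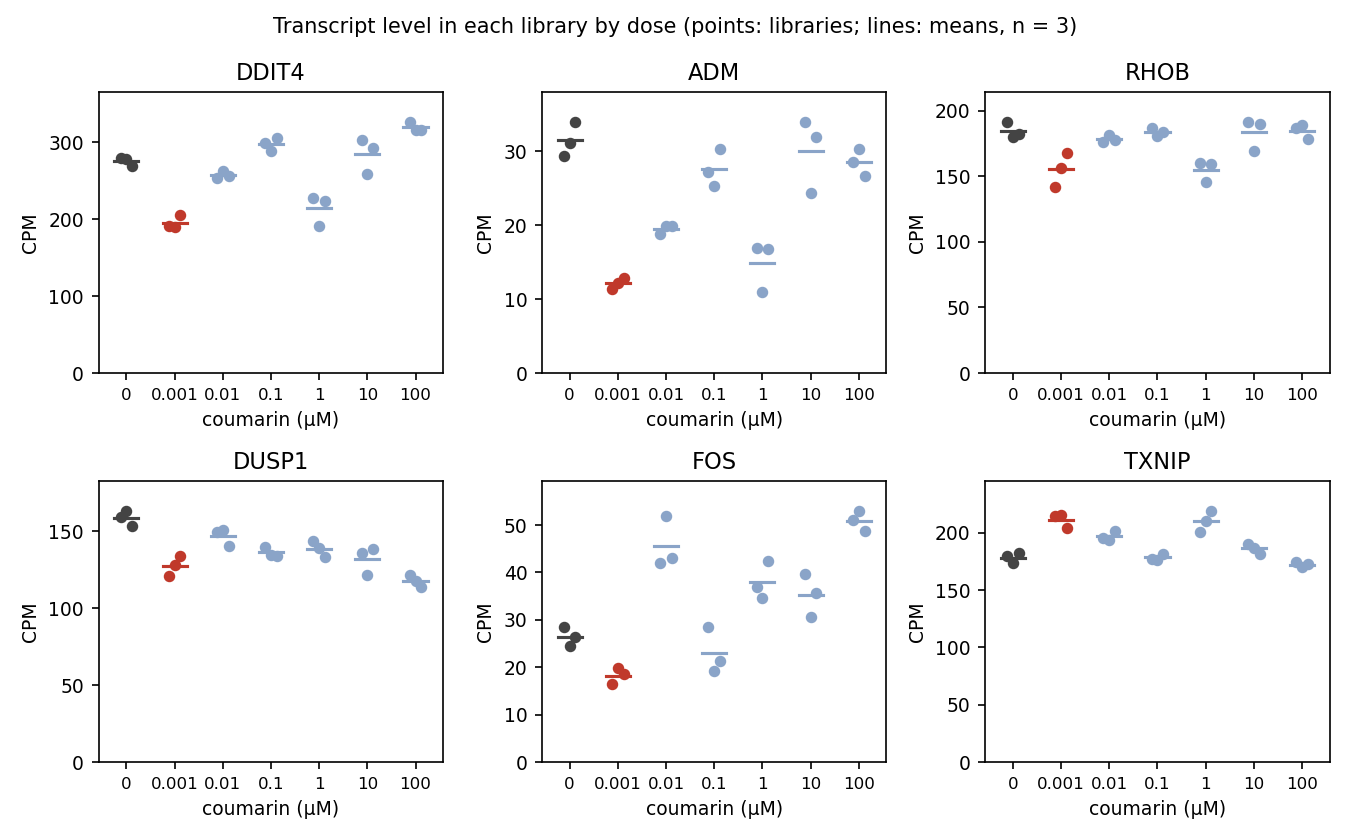
Level of 6 genes in CPM (each axis starts at 0) in every library by coumarin dose in µM; points are libraries, lines are means of 3, with 0 µM in dark grey and 0.001 µM in red. DDIT4, ADM and RHOB are low at 0.001 µM and again at 1 µM, while TXNIP is high at these doses.

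The other doses, read against the same 3 controls and therefore not independent of the first comparison, did not continue these falls in step with dose. DDIT4 was 253 to 263 CPM at 0.01 µM, 289 to 306 CPM at 0.1 µM, 191 to 227 CPM at 1 µM, 259 to 302 CPM at 10 µM and 316 to 326 CPM at 100 µM. ADM was 18.8 to 19.96 CPM at 0.01 µM, 25.3 to 30.4 CPM at 0.1 µM, 10.9 to 16.9 CPM at 1 µM, 24.3 to 33.9 CPM at 10 µM and 26.7 to 30.4 CPM at 100 µM. The level at 0.001 µM thus overlapped that at 1 µM for both genes and lay below those at the remaining doses. RHOB had 145 to 159.8 CPM at 1 µM, overlapping its 142 to 168 CPM at 0.001 µM, and at least 169 CPM in each library of the remaining doses. DUSP1 differed in that its lowest level was at 100 µM, 114 to 121 CPM, with values between 122 and 151 CPM at 0.01 to 10 µM.

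To ask whether 0.001 µM differed from the doses above it without using the controls, it was set against the mean of the 9 libraries at 0.01, 0.1 and 1 µM. DDIT4 and FOS passed, both lower, which is 0.012% of the genes tested, and 0 genes passed in the higher direction (0%). At an unadjusted p under 0.05 edgeR gave 426 higher and 559 lower genes, DESeq2 called 2 higher and 11 lower, and limma on log2(FPKM + 1) called 0 and 4. The log2 difference of DDIT4 was -0.38 (edgeR adjusted p = 5.05e-06) and it passed in every alternative fit of this comparison. ADM had a log2 difference of -0.72, which edgeR did not call (adjusted p = 0.147) and DESeq2 (adjusted p = 2.03e-05) and limma on log2(FPKM + 1) (adjusted p = 0.0475) did. For DUSP1 and RHOB the difference was -0.14 in each case, with an edgeR adjusted p of 0.474.

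FOS, at 14:75278774-75282230, had 28.6, 24.5 and 26.4 CPM in controls and 16.5, 19.9 and 18.5 CPM at 0.001 µM. The groups did not overlap, but the log2 difference of -0.54 did not pass in the fit of all 21 libraries (edgeR adjusted p = 0.089). It passed when only the 2 groups were fitted (adjusted p = 0.00135) and by DESeq2 (adjusted p = 0.00662). At 0.01 µM FOS stood at 42.1 to 51.9 CPM, at 0.1 µM at 19.3 to 28.5 CPM and at 1 µM at 34.6 to 42.4 CPM. Against those doses it was lower by a log2 difference of -0.90 (edgeR adjusted p = 0.0188), and the highest of its 3 libraries overlapped those at 0.1 µM. That call was lost without 0.001 µM replicate 1 (adjusted p = 0.414) and without replicate 2 (adjusted p = 0.116).

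Among the immediate early genes, transcripts induced within minutes of a stimulus, 21 were tested, DUSP1 fell and none rose. DESeq2 called 2 higher and 3 lower, and limma 1 lower. At an unadjusted p under 0.05, 5 were lower and 4 higher, and the median log2 change was 0.083, against -0.0024 over all genes. JUNB, another AP-1 subunit, was 57.4 to 58.2 CPM in controls and 44.1 to 53.9 CPM at 0.001 µM (log2 -0.22, edgeR adjusted p = 0.259), and passed without the filter on low counts (adjusted p = 0.00789). Against the mean of 0.01, 0.1 and 1 µM JUNB was not called by edgeR (log2 -0.31, adjusted p = 0.337), but was by DESeq2 (adjusted p = 0.00138), and by edgeR without the filter (1.14e-08) or without 0.001 µM replicate 3 (0.0481). Of 13 feedback inhibitors and targets of the ERK pathway none passed by edgeR, DESeq2 or limma, and at an unadjusted p under 0.05 there were 1 higher and 3 lower. The list of hypoxia targets held ADM and DDIT4 as its 2 falls among 16 tested, with no rise and a median of -0.013. VEGFA, the angiogenic growth factor of that list, was 264 to 297 CPM in controls and 249 to 253 CPM at 0.001 µM, without overlap and without passing (log2 -0.17, edgeR adjusted p = 0.206, but 0.0183 without the filter on low counts). Of 30 genes of the ATF4 and amino acid response DDIT4 alone fell and none rose (median -0.015).

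Further falls were smaller than those of ADM and DDIT4 and lost their call in 1 or more alternatives. GADD45B, PPP1R3C and MYLIP were named by size, and EFNA1 was named after its values had been seen. GADD45B, a stress sensor of the p38 kinase pathway, had 20.8, 20.6 and 19.9 CPM in controls and 15.0, 15.1 and 18.1 CPM in treated libraries (log2 -0.35, edgeR adjusted p = 0.00591). Its call was lost only when control replicate 1 stood alone for the controls (adjusted p = 0.0838). PPP1R3C, which directs protein phosphatase 1 to glycogen, had 40.4 to 42.4 CPM and then 32.0 to 33.1 CPM (log2 -0.35, edgeR adjusted p = 0.0076, but 0.0708 without 0.001 µM replicate 3). EFNA1, an ephrin ligand, had 61.7 to 67.0 CPM and then 51.2 to 54.9 CPM (log2 -0.27, edgeR adjusted p = 0.00647, and 0.0519 without control replicate 2). MYLIP, the ubiquitin ligase that marks the LDL receptor for breakdown, had 16.3 to 17.8 CPM and then 12.6 to 14.3 CPM (log2 -0.32, edgeR adjusted p = 0.0332). Without control replicate 1, control replicate 3 or 0.001 µM replicate 3 MYLIP did not pass (adjusted p = 0.0663, 0.209 and 0.246). All 4 genes had treated libraries below every control.

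Splicing regulators gave 2 falls among 30 tested and no rise, with a median of -0.028. SRSF3, a serine-arginine splicing factor, fell by 0.14 on the log2 scale (edgeR adjusted p = 0.0338), and CLK1, a kinase of such factors, fell by 0.35 (edgeR adjusted p = 0.0442). CLK1 lost its call in 12 of 19 alternatives, with adjusted p up to 0.456, including each fit that left out 1 library. SRSF3 lost its call in 7 of 19, among them the 4 fits that dropped replicate 1 or 3 of either group (adjusted p 0.0653 to 0.159). At an unadjusted p under 0.05 the same list had 8 higher and 6 lower members. Hosts of small nucleolar RNAs were lower in 13 of 17 cases, with 7 lower and 1 higher at an unadjusted p under 0.05 and a median of -0.084, and none passed by edgeR, DESeq2 or limma.

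Single members fell in 2 metabolic lists. NDUFB8, an accessory subunit of respiratory complex I, had 20.05, 20.3 and 19.3 CPM in controls and 16.1, 15.9 and 14.1 CPM after treatment (log2 -0.37, edgeR adjusted p = 0.00943), while the other 33 of 34 nuclear genes of oxidative phosphorylation did not pass. Without 0.001 µM replicate 3 NDUFB8 lost its call (adjusted p = 0.104). Against the shared controls NDUFB8 also passed at 0.01 and 0.1 µM (log2 -0.44 and -0.26). It did not pass at 1, 10 and 100 µM (-0.12, -0.27 and -0.09). AKR1C1, an aldo-keto reductase of steroids and xenobiotics, had 384 to 404 CPM and then 335 to 349 CPM (log2 -0.19, edgeR adjusted p = 0.00433). AKR1C1 lost its call only in the fit of only the groups compared (edgeR adjusted p = 0.0563). It shares much of its sequence with AKR1C2 (log2 -0.07) and AKR1C3 (log2 -0.08), so how the authors' counting divided reads among them bears on it. It was the 1 fall among 23 NRF2 targets, of which none rose. AKR1C1 also passed against the shared controls at each dose from 0.01 to 100 µM (log2 -0.15, -0.17, -0.24, -0.17 and -0.86).

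Among short or low transcripts, RPL17, TMEM256 and C12orf57 fell by 0.34, 0.49 and 0.30 on the log2 scale, each with non-overlapping groups and each with treated replicate 3 lowest. Their calls were lost without that library (adjusted p = 0.0875, 0.091 and 0.101), and that of TMEM256 also without any 1 of the controls. Against the shared controls all 3 also passed at 0.01 µM (log2 -0.38, -0.42 and -0.35) and at 0.1 µM (-0.38, -0.49 and -0.29). At 1 µM only RPL17 passed (-0.25, with -0.41 for TMEM256 and -0.16 for C12orf57). At 10 and 100 µM TMEM256 (-0.45 and -0.49) and C12orf57 (-0.23 and -0.34) passed and RPL17 (-0.18 and 0.07) did not. ZNF333, a zinc finger gene with 11.6 to 12.2 CPM in controls and 9.05 to 9.86 CPM after treatment, fell by 0.34. Its call was lost without 0.001 µM replicate 3 (adjusted p = 0.0983) and in other alternatives. It also passed against the shared controls at 0.01 to 10 µM (log2 -0.29, -0.34, -0.29 and -0.31) but not at 100 µM (-0.13). RPL17 and the pseudogenes RPL12P4 (log2 -0.66) and PTMAP2 (log2 -0.58) have near-identical copies, so their counts are uncertain. AL163051.1 fell by 0.86, with 1.71 to 2.51 CPM in controls and 1.14 to 1.18 CPM after treatment. These 3 non-coding transcripts each lost their call without 0.001 µM replicate 3 (adjusted p = 0.166, 0.173 and 0.0864) and without 1 or more other libraries. The strand setting of the count is not given in the sources used here, so reads of overlapping genes cannot be told apart from it.

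The rises that kept their call in every alternative fit numbered 22, and their folds lay between 1.16 and 1.29. DSP, desmoplakin of the desmosome, at 6:7541575-7586717, had 143, 145 and 135 CPM in controls and 167, 171 and 181 CPM in treated libraries. All treated libraries were above all controls (log2 0.30 ± 0.040, SE; edgeR adjusted p = 6.1e-05). TLN1 (talin, log2 0.30), SPTBN1 (beta spectrin, 0.24) and MACF1 (a microtubule and actin crosslinker, 0.24) were also in this set. TLN1 rose from 208 to 223 CPM to 249.6 to 289 CPM. FLNA, filamin A, had 1484, 1514 and 1444 CPM and then 1695, 1753 and 1977 CPM, and it lost its call only with control replicate 1 alone (edgeR adjusted p = 0.000941 and 0.0529). MYH9, a non-muscle myosin heavy chain, rose by a log2 value of 0.28 and lost its call in the same setting (adjusted p = 0.11). Without exception in these 6 genes the treated libraries lay above the controls.

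Collagens and other matrix proteins gave 5 rises among 27 tested and no fall. At an unadjusted p under 0.05 there were 14 higher and 0 lower, DESeq2 called 7 higher and limma on FPKM 5, and the median log2 change was 0.12. COL4A2, a chain of basement membrane collagen, at 13:110305812-110513209, had 271, 277 and 249 CPM in controls and 306, 333 and 363 CPM after treatment (log2 0.33, edgeR adjusted p = 0.000265). COL5A1 had 306, 323 and 307 CPM and then 354, 378 and 419 CPM (log2 0.30, edgeR adjusted p = 0.000348). COL12A1, a fibril-associated collagen, had 402 to 454 CPM and then 484 to 524 CPM (log2 0.27). In all 3 the groups were separate and in all 3 treated replicate 3 was highest. COL3A1 and the laminin LAMC1 rose by 0.17 each on the log2 scale, but lost their calls without control replicate 3 (adjusted p = 0.183 and 0.157) and without 0.001 µM replicate 3 (0.219 and 0.244), and COL3A1 also without 0.001 µM replicate 2 (0.0604). The matrix list has a median gene length of 9408 bases, against 4159 over all genes tested. FBN2, fibrillin of elastic fibres, outside that list, rose by 0.29. Of a list of 12 fibroblast markers, 3 of which are collagens of the matrix list, 9 were tested, 8 had higher values and COL3A1 alone rose. The summed level was 1604 to 1690.2 CPM in controls and 1727 to 1845 CPM in treated libraries, of which COL3A1 made up 1131 to 1196 CPM and then 1234 to 1362 CPM. Without the shared collagens, 7 were tested, none passed, and the summed level overlapped (359.5 to 385 CPM in controls, 354 to 403 CPM in treated libraries). Of its defining members PDGFRA had 0 counts and COL1A2 at most 1 in all 6 libraries. The part of such markers in the result was not tested.

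Genes of TGF-beta and YAP signalling gave 3 rises among 23 tested and no fall (median 0.055): AXL, a receptor tyrosine kinase (0.20), LTBP1, which binds latent TGF-beta (0.30), and TGFBI, a secreted matrix protein (0.16). AXL was 112 to 116 CPM in controls and 129 to 132 CPM in treated libraries, and LTBP1 20.4 to 22.6 CPM and 25.9 to 27.7 CPM. All 3 lost their call without control replicate 3 (0.0514, 0.124 and 0.136) and without 0.001 µM replicate 3 (0.0672, 0.0869 and 0.264), with adjusted p up to 0.193, 0.303 and 0.264 over the alternatives. KRT17, a stress keratin, rose by 0.21 and was the 1 rise among 8 keratins, with adjusted p up to 0.548 over the alternatives and losses without control replicate 2, control replicate 3 or 0.001 µM replicate 3 (0.0608, 0.157 and 0.174). The summed keratin level was 4553 to 5034 CPM in controls and 4987 to 5189 CPM in treated libraries, which overlapped. Against the shared controls AXL, LTBP1, TGFBI and KRT17 also passed at 0.01 µM (log2 0.28, 0.28, 0.21 and 0.28). At 0.1 µM all but TGFBI (0.10) passed. At 1 µM LTBP1 and KRT17 passed, and at 10 µM TGFBI alone, as lower (-0.16). With the FPKM-total measure given further on as a covariate, no gene of the TGF-beta and YAP list passed at 0.001 µM.

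**Figure D3:**
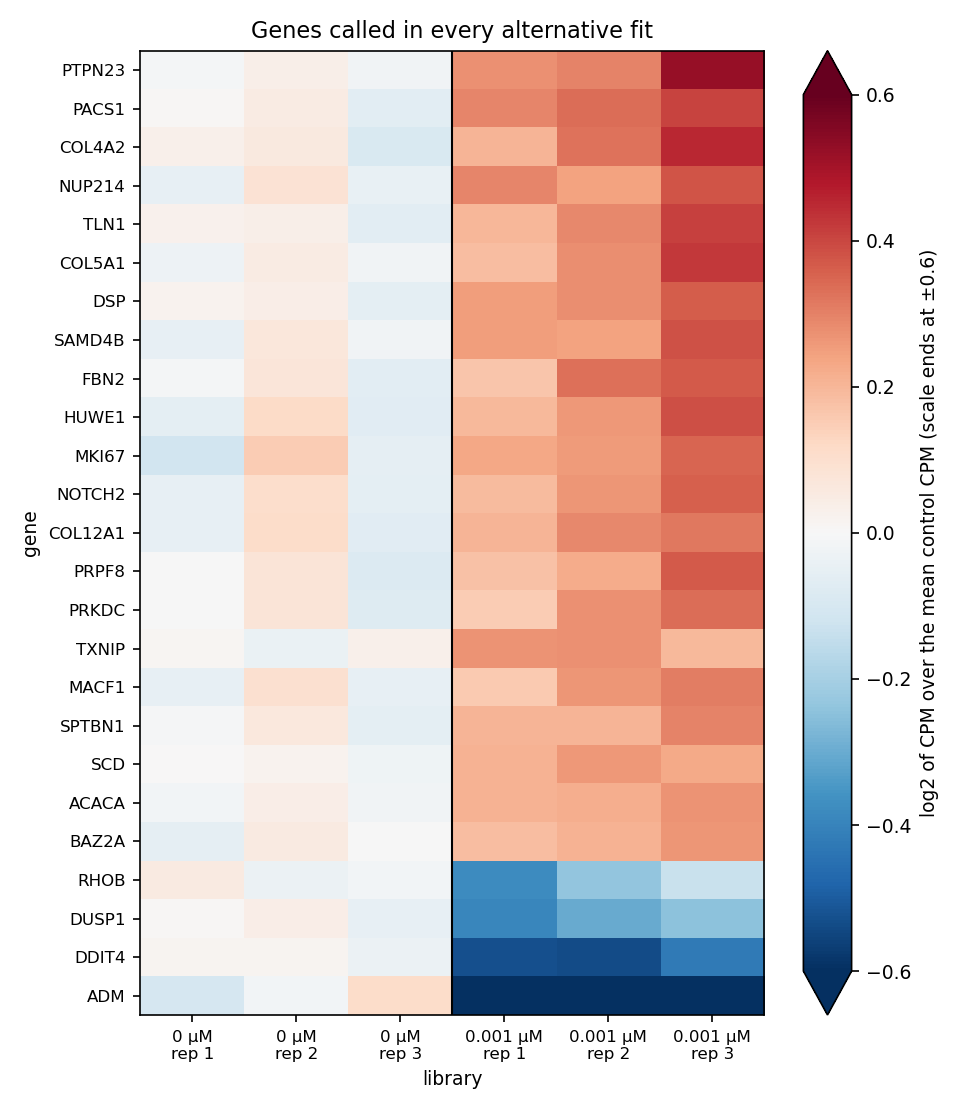
Heat map of 25 of the 26 genes that passed in every alternative fit; colour is the log2 of each library's CPM over the mean control CPM (scale ends at 0.6 in either direction, beyond which ADM lies), rows are genes and columns the 6 libraries. The treated columns are darker than the controls throughout, and 0.001 µM replicate 3 is the darkest for most rising genes.

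Fatty acid and triglyceride synthesis gave 2 rises among 19 tested, with 8 higher and 0 lower at an unadjusted p under 0.05 and a median of 0.064. SCD, the desaturase that makes oleic acid, at 10:100347124-100364834, had 811, 822 and 796 CPM in controls and 935, 969 and 948 CPM after treatment (log2 0.23, edgeR adjusted p = 0.000374). ACACA, acetyl-CoA carboxylase, the committed step of fatty acid synthesis, had 169.7, 177 and 169 CPM and then 199, 199.6 and 207 CPM (log2 0.23, edgeR adjusted p = 0.00109). Both genes had no overlap between groups, and both kept their call in every alternative fit. The related FASN had a log2 difference of 0.29 that did not pass (edgeR adjusted p = 0.057). Of 25 cholesterol synthesis genes DHCR7 (0.26) and INSIG1 (0.18) rose and none fell (median 0.086), and both lost their call without control replicate 3 (adjusted p = 0.137 and 0.179) or without 0.001 µM replicate 3 (0.217 and 0.0752).

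SCD was 918 to 979 CPM at every dose from 0.01 to 10 µM and 757 to 794 CPM at 100 µM, just below its 796 to 822 CPM in untreated cells. ACACA and the collagen COL4A2 stayed above the controls at 100 µM, with log2 differences from the shared controls of 0.30 and 0.28. DSP was 155 to 165 CPM at 100 µM and 168 to 175 CPM at 0.01 µM. For 21 of the 22 rising genes, the log2 difference from the shared controls ran from 0.14 to 0.50 at 0.01 µM, 0.00 to 0.46 at 0.1 µM, 0.16 to 0.30 at 1 µM, 0.06 to 0.33 at 10 µM and -0.09 to 0.33 at 100 µM. Against the mean of 0.01, 0.1 and 1 µM, their log2 difference at 0.001 µM was between -0.05 and 0.12. None of these 21 passed by edgeR in the fit of all 21 libraries (adjusted p 0.466 to 0.991, with 1 at an unadjusted p under 0.05), which does not show that the levels were equal.

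TXNIP, the thioredoxin-interacting protein that restrains glucose uptake, at 1:145992435-145996600, had the highest of these 21 differences from the mean of 0.01, 0.1 and 1 µM, 0.12. That difference passed by DESeq2 (adjusted p = 0.0489) and by edgeR without 0.001 µM replicate 3 (log2 0.14, adjusted p = 0.0479). TXNIP had 179, 173 and 182 CPM in controls and 215, 215 and 204 CPM at 0.001 µM (log2 0.25, edgeR adjusted p = 0.000265). It then stood at 194 to 202 CPM at 0.01 µM, 176 to 182 CPM at 0.1 µM, 201 to 218 CPM at 1 µM, 182 to 190.1 CPM at 10 µM and 169.8 to 174 CPM at 100 µM. Its 0.001 µM libraries were above all libraries at 0.01, 0.1, 10 and 100 µM and overlapped those at 1 µM. Unlike most of the rising genes it was lowest in treated replicate 3, and its gene model of 3625 bases is shorter than the median of those tested.

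The remaining rises of the set that are reported were NUP214 (a nuclear pore protein, log2 0.30), PRPF8 (core of the spliceosome, 0.26), PRKDC (catalytic subunit of the DNA-dependent protein kinase, 0.25), BAZ2A (silencing of ribosomal DNA, 0.22), MKI67 (the proliferation marker Ki-67, 0.28), NOTCH2 (a signalling receptor, 0.27), HUWE1 (a ubiquitin ligase, 0.28), PACS1 (sorting of membrane proteins, 0.34), PTPN23 (endosomal sorting, 0.37) and SAMD4B (0.29). MKI67 had 222, 267 and 231.5 CPM in controls and 282, 287 and 306 CPM after treatment. It was the 1 rise among 30 genes of mitosis, with no fall and a median of 0.034, and no gene of the 28 of DNA replication passed by edgeR, DESeq2 or limma (4 higher and 1 lower at an unadjusted p under 0.05). PTPN23 had 52.6, 54.3 and 52.3 CPM and then 64.2, 65.3 and 76.2 CPM, so treated replicate 3 stood apart from the other two. Of these rises, those chosen by neither the 8 smallest p-values, nor size, nor a gene list were named after their values had been seen.

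Large chromatin regulators, a list with a median gene length of 15493 bases, were higher in 21 of 22 cases, of which 16 had an unadjusted p under 0.05, and the median was 0.13. That median was 0.077 with the trend on length and GC content removed and 0.22 with control replicate 1 alone. By the adjusted test only EP300, a histone acetyltransferase, rose (65.0, 81.2 and 67.7 CPM, then 78.8, 85.8 and 92.1 CPM), and it lost its call without control replicate 1, control replicate 3, 0.001 µM replicate 2 or 0.001 µM replicate 3 (adjusted p up to 0.245 over the alternatives). DESeq2 called 5 of the list and limma on FPKM none. Elsewhere LAMP1, a lysosomal membrane protein (0.23), and ATG2A, a lipid transfer protein of autophagy (0.27), were the 2 rises among 23, ABCC1, a drug efflux pump (0.22), the 1 rise among 23 ABC transporters, HK1, hexokinase (0.16), the 1 among 19 glycolysis genes, and NAT10, an RNA acetyltransferase (0.17), the 1 among 20 of ribosome biogenesis. Among these 5, LAMP1 kept its call in each fit that left out 1 library. The others lost theirs without 0.001 µM replicate 3 (adjusted p = 0.116 for ATG2A, 0.124 for ABCC1, 0.225 for HK1 and 0.0986 for NAT10), and all but ABCC1 also without control replicate 3 (0.072, 0.245 and 0.255).

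**Figure D4:**
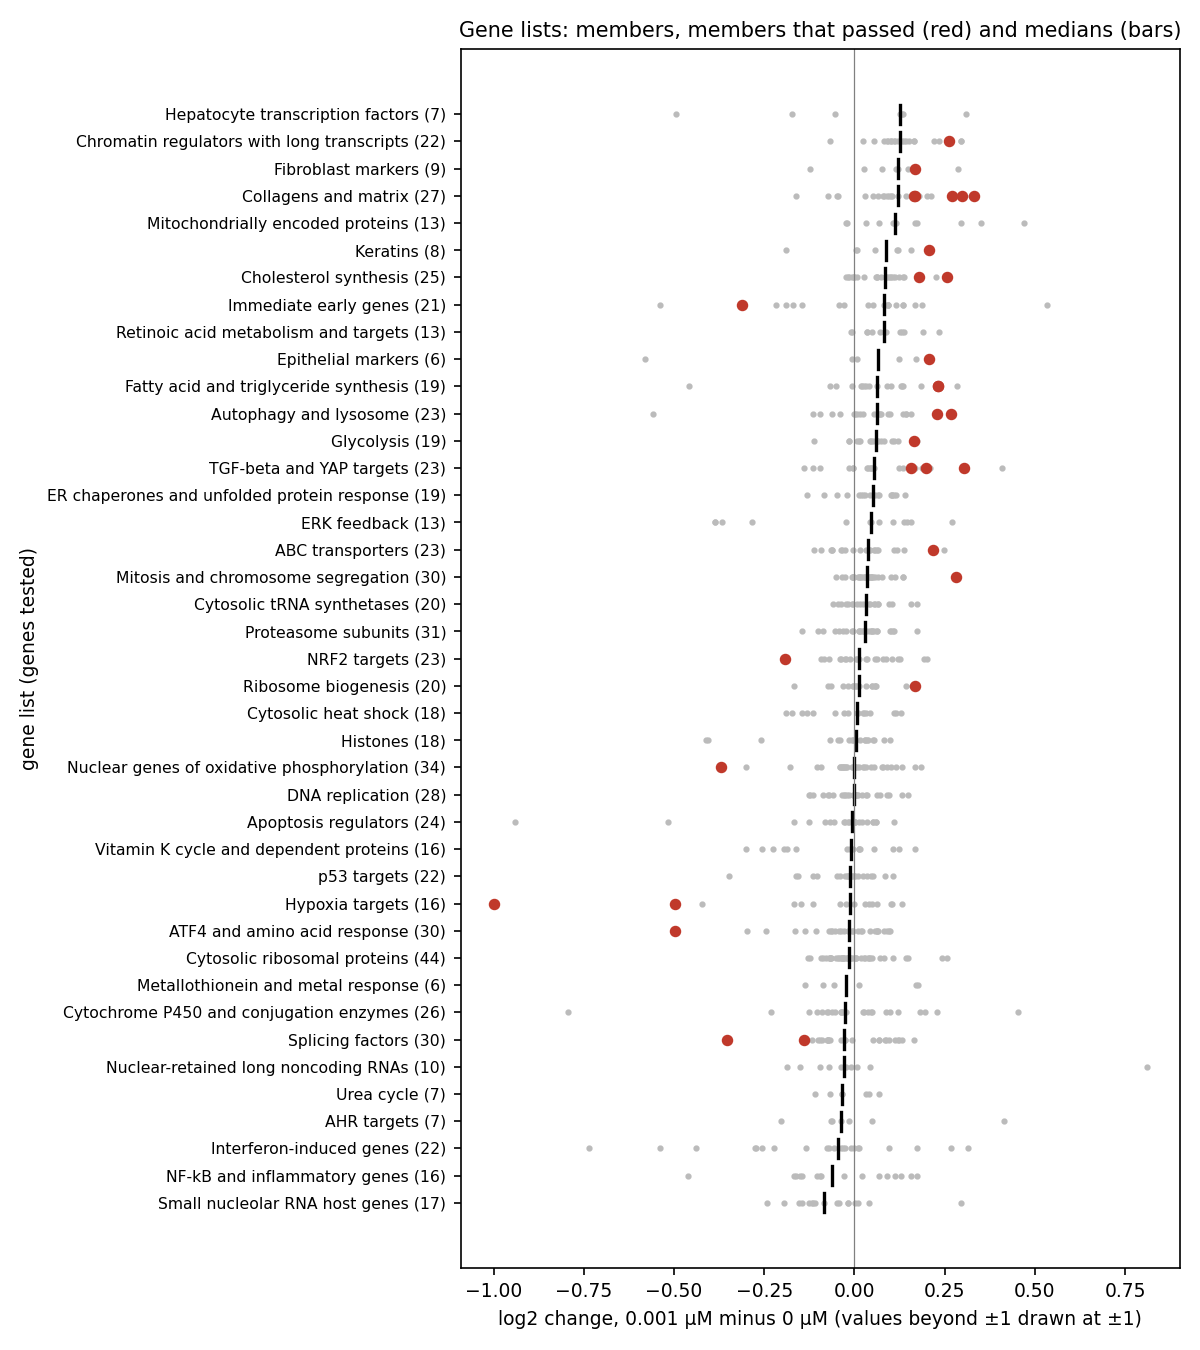
Log2 change from 0 to 0.001 µM for the members of the 41 gene lists with at least 5 tested genes, ordered by list median (black bar); red points passed the test, grey points did not, and values beyond 1 in either direction are drawn at the edge. Red points lie mostly to the right of 0, and the lists of large chromatin regulators and of matrix genes have medians of 0.13 and 0.12.

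In all, 19 of the 44 lists held a changed gene, 13 of them with a rise and 6 with a fall, and 25 held none. No list held both. Some lists share members, such as DDIT4 (hypoxia and ATF4) and COL3A1 (matrix and fibroblast), so these counts are not independent. The list of epithelial markers held 1 rise among 6 tested. The list of 44 cytosolic ribosomal proteins, which does not hold RPL17, gave no call by edgeR or limma and 1 fall by DESeq2 (2 higher and 2 lower at an unadjusted p under 0.05, median -0.016). The 22 p53 targets, 24 apoptosis regulators and 18 cytosolic heat shock genes gave none by edgeR, DESeq2 or limma, with 0, 0 and 2 higher and 1, 2 and 4 lower at an unadjusted p under 0.05. The 13 proteins encoded in mitochondria had 11 higher values, 3 of them at an unadjusted p under 0.05, and no call by edgeR or limma and 1 by DESeq2 (median 0.11). That median was -0.025 with control replicate 1 alone. MT-TL1, a mitochondrial leucine tRNA gene, had 5.58, 4.37 and 5.29 CPM in controls and 8.003, 8.04 and 6.92 CPM after treatment (log2 0.59, edgeR adjusted p = 0.00434). It lost its call in the fit with the FPKM-total measure given further on as a covariate (adjusted p = 0.0508). With control replicate 1 alone its log2 change was 0.46. Against the shared controls it also passed at 0.01, 0.1, 10 and 100 µM (log2 0.61, 0.38, 0.47 and 0.32) and not at 1 µM (0.42). The RNA was selected with poly(dT) beads, and whether these reads came from the mature tRNA was not tested.

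Of the genes tied to coumarin itself, CYP2A6 had 0 to 2 counts in controls and 0 to 3 in treated libraries, at or under the limit of 3 counts, and CYP3A4 had 0 in all 6. CYP1A1, a cytochrome induced through the aryl hydrocarbon receptor, had 22 to 35 counts in controls and 31 to 43 in treated libraries, which overlapped (log2 0.42, edgeR adjusted p = 0.561). VKORC1 was 27.2 to 28.2 CPM and then 22.2 to 25.5 CPM, without overlap and without passing (log2 -0.19, edgeR adjusted p = 0.18). NQO1, a quinone reductase, had 659.7 to 731 CPM and then 656 to 688 CPM (log2 -0.04, edgeR adjusted p = 0.802). Of 26 tested cytochromes P450 and conjugation enzymes none passed by edgeR or limma and 1 was lower by DESeq2. At an unadjusted p under 0.05 there were 2 higher and 1 lower. Of 7 tested targets of the aryl hydrocarbon receptor none passed by any of these tools, and none had an unadjusted p under 0.05.

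Long gene models were frequent among the rises. Their median length was 7761 bases, against 4159 for all genes tested and 2495 for the falls, and 107 of 224 rises (47.8%) were at least 8000 bases long, against 17.3% of genes tested and 3 of 32 falls (9.38%). Their median level was 113 CPM, against 15.9 CPM for all genes tested. Among 9456 genes of at least 10 CPM, those of 16000 bases or more (267 genes) had a median log2 change of 0.039 and 6.37% rose. Within that class control replicate 1 deviated from the mean of the 6 libraries by -0.092, while the other 5 libraries lay between -0.016 and 0.031. Counts on genes of at least 10000 bases made up 11.6%, 12.7% and 12.4% in controls and 12.7%, 12.6% and 12.5% in treated libraries. When a trend on length and on GC content (the share of G and C bases in the transcript) was removed from each library, 217 of the 224 rises and 30 of the 32 falls were still called.

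By GC content, 0.001 µM replicate 3 stood apart: genes with 60% or more deviated by 0.096 in it, against -0.041 to 0.023 in the other 5 libraries, and genes under 40% by -0.080. That library was the highest of the treated libraries in 185 of the 224 rises. A further library measure was computed from the totals behind the deposited FPKM: the part of that total not found in the summed gene counts was 3.91%, 8.03% and 8.17% in controls and 5.43%, 4.60% and 3.15% in treated libraries. The mean difference was -2.31 percentage points (exact permutation test, two-sided, p = 0.3, Benjamini-Hochberg adjusted over 3 library measures 0.45), and the smallest p that 3 against 3 allows is 0.1. With that measure as a covariate 67 genes rose and 28 fell. With control replicate 1 alone, whose share lay within the treated range, 98 rose and 21 fell, and 60 of the 256 genes were among them. Of counts on the mitochondrial chromosome the mean share was 7.01% in controls and 7.25% in treated libraries (exact permutation test, p = 0.3).

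**Figure D5:**
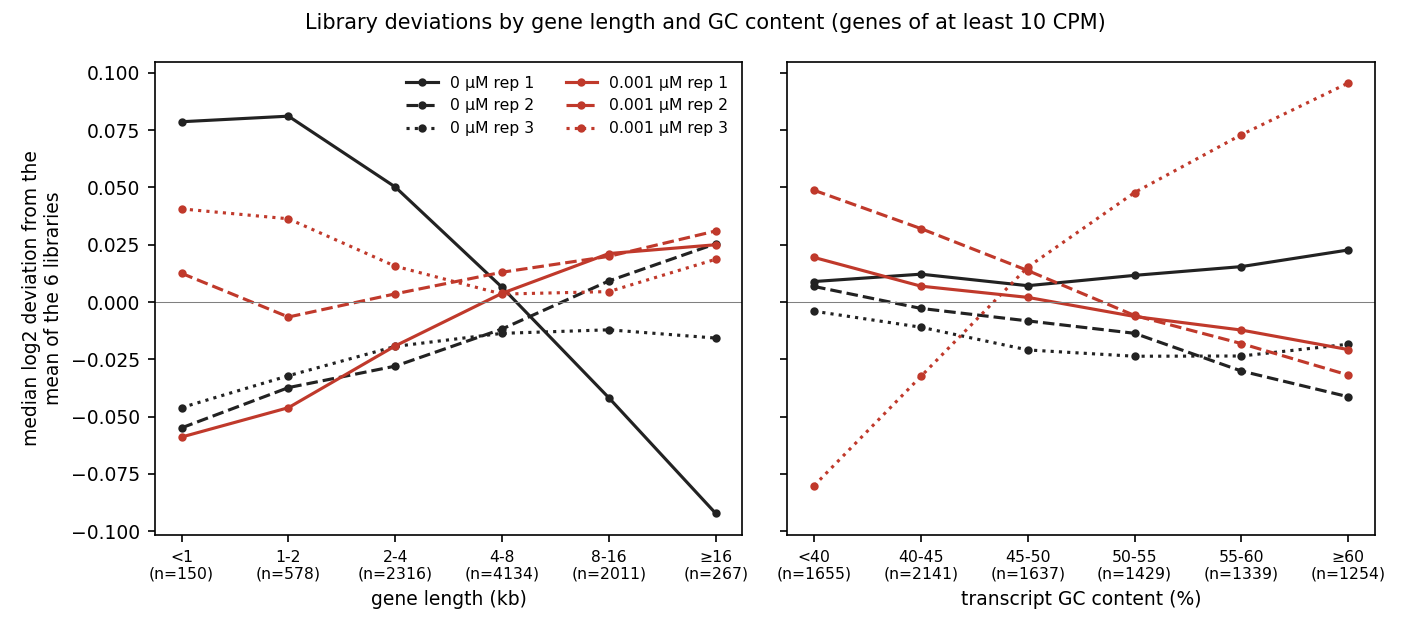
Median log2 deviation of each of the 6 libraries from their mean, by class of gene length in kb (left) and of transcript GC content in percent (right), for the 9456 genes of at least 10 CPM; black lines are controls, red lines 0.001 µM, and n is the number of genes. Control replicate 1 drops to -0.092 in the longest class, and 0.001 µM replicate 3 climbs to 0.096 in the class richest in GC.

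Some of the largest rises were of low or repeated sequences. TBC1D3E, one of a family of near-identical genes, had 0.568, 0.625 and 1.10 CPM in controls and 1.67, 1.76 and 1.53 CPM after treatment (log2 1.11, edgeR adjusted p = 0.0142), and reads of its copies could not be separated here. It lost its call without control replicate 1, control replicate 2 or 0.001 µM replicate 3 (adjusted p = 0.0744, 0.0926 and 0.0618). The pseudogenes UBE2V1P2 (log2 1.05) and SNRPEP4 (log2 0.87) were highest in treated replicate 3, at 3.60 and 5.38 CPM. The next library had 1.72 and 3.63 CPM, and both lost their call without treated replicate 3 (adjusted p = 0.312 and 0.121). Both also passed against the shared controls at each dose from 0.01 to 100 µM. In dose order UBE2V1P2 had log2 values of 1.076, 1.114, 1.03, 1.135 and 1.247. SNRPEP4 had 0.896, 1.043, 0.849, 0.869 and 1.03. The same 3 controls enter each of these comparisons, which are therefore not independent. Among protein-coding genes of at least 1 CPM with separate groups the next largest rises were AHNAK2 (0.40), PTPN23 (0.37), FOXP4 (0.36), ZC3H3 (0.36) and FAT4, a giant cadherin (0.35). AHNAK2, which encodes a very large scaffold protein, had 20.6, 28.5 and 24.2 CPM in controls and 30.5, 31.6 and 34.7 CPM in treated libraries, and lost its call without control replicate 3 (adjusted p = 0.0885) or 0.001 µM replicate 3 (0.12). FOXP4 and ZC3H3 lost theirs without the same libraries (0.137 and 0.102, then 0.124 and 0.0829). FAT4 kept it in each fit that left out 1 library, but lost it by limma with either offset and with only the groups compared (adjusted p = 0.0517, 0.05145 and 0.058). Against the shared controls AHNAK2, PTPN23, FOXP4, ZC3H3 and FAT4 also passed at 0.01 µM (log2 0.39, 0.50, 0.59, 0.41 and 0.32). At 0.1 µM all but AHNAK2 passed, and at 1 and 10 µM only FAT4. At 100 µM FOXP4 (0.25) and ZC3H3 (0.46) passed, and AHNAK2 passed as lower (-0.31). BCL9L, SH3BGRL3, SETBP1, MOSPD3 and ZNF628 had log2 rises of 0.33 to 0.34, and each lost its call without control replicate 3 (adjusted p 0.064 to 0.291).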

How the data were processed

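RNA selected with poly(dT) beads was sequenced from 21 libraries, 3 per dose. Counts per gene were deposited by the authors as whole numbers, and the authors also deposited FPKM, which scales counts by gene length and a library total, and other columns such as gene length per the file headers. HISAT2, DESeq2 and GRCh38 are named in the submitters' processing notes, but neither counter nor strand setting, which were not given in the sources used here. Counts were fitted in R 4.3.3 with edgeR 4.0.16 (TMM scaling, filterByExpr, quasi-likelihood test, Benjamini-Hochberg adjustment over 16699 of 58735 genes) on all 21 libraries, with 14 residual degrees of freedom. CPM uses TMM-scaled library totals. The common biological coefficient of variation was 4.49%, and the script was tested on simulated data. DESeq2 1.42.0, limma 3.58.1 on log2(FPKM + 1) and log2(FPKM + 0.1), other scalings and filters, a replicate block, a covariate, 1 control alone and each library left out were alternatives. A fit with a GC and length trend removed was added after seeing the data (GC from GENCODE release 29 transcripts). Promoter letters are from RefSeq (GRCh38.p14), matched by symbol. Genes were named by size (12 protein-coding and 3 non-coding each way, at least 1 CPM, separate groups), by keeping their call in every alternative fit (8 each way by p), as the 4 members of each list with the smallest p, by passing against 0.01 to 1 µM, and as 5 fixed coumarin genes. Of the genes called in every alternative fit, 1 is not reported here. The comparison and the 44 lists were chosen with earlier results of these data known. Limits of 3 counts cover counting error only, whereas each SE comes from the edgeR fit and holds the spread between libraries.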

Additional observations from a re-analysis of the deposited data

Results flagged for a closer look

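DDIT4 at 0.001 µM differed from the mean of the 9 libraries at 0.01, 0.1 and 1 µM by a log2 value of -0.38 (edgeR adjusted p = 5.05e-06). This is a tested difference between doses, and 2 of the 3 libraries at 0.001 µM were below all 9 of the others. FOS differed in the same test by -0.90 (edgeR adjusted p = 0.0188), with the 0.001 µM libraries at 16.5 to 19.9 CPM and those at 0.1 µM reaching down to 19.3 CPM.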

How the results depend on the processing

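Of 256 changed genes (224 higher, 32 lower), 26 were called in every alternative fit. Without a filter on low counts 394 changed (65 lower). Fitting only the groups compared gave 95 (72 higher), DESeq2 421 (366 higher, 55 lower), limma on log2(FPKM + 1) 144 (125 higher, 19 lower), limma on log2(FPKM + 0.1) 155 (133 higher), the covariate 95 (67 higher), control replicate 1 alone 119 (98 higher, 21 lower), the GC and length trend removed 463 (375 higher, 88 lower), an adjusted p under 0.01 90 (77 higher, 13 lower), and a fold of at least 1.5 9 (6 higher, 3 lower). Leaving out 1 library gave 47 to 326 changed, 39 to 279 higher and 8 to 51 lower. The share of rises, 87.5%, was 76.3% with upper-quartile scaling, 75.8% in the fit of only the groups compared, 70.5% with the covariate and 76.3% without control replicate 3. The cause was not tested.

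Against the mean of 0.01, 0.1 and 1 µM, 2 genes became 28 without the filter, 1 with only the groups compared, 13 by DESeq2, 4 by limma with either offset, 1 with the covariate, 1 at an adjusted p under 0.01, 1 at a fold of 1.5, and 1 to 57 on leaving out 1 library, with 57 without 0.001 µM replicate 3.

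NQO1 ran from -0.070 to 0.00417 on leaving out 1 library, the positive value without control replicate 1. The difference in summed counts, -410330 on average, ran from -1695400 to 383450 when 1 library was left out, and was 80984 without 0.001 µM replicate 3. With the replicate number as a block 238 genes changed, 235 of them the same genes. Deviations of same-numbered control and treated libraries correlated at -0.224, 0.009 and -0.002 across 9456 genes. Those of differently numbered libraries correlated at -0.13 to 0.17. These values cannot decide whether the numbers pair the libraries, so this fit is not read as a paired analysis. Without 0.001 µM replicate 3, 35 of 77 results for named genes lost their call. The 77 include some, such as those of VKORC1 and NQO1, that had no call to lose. Calls were fewer at low levels: of 3348 genes under 1 CPM 2 rose and 0 fell, and of 3895 at 1 to 10 CPM 6 rose and 5 fell, against 117 and 7 of 1988 at 100 to 1000 CPM.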
